A study of Mus musculus with 6 samples.

Results

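The genes described here are those of the mouse major histocompatibility complex (MHC) and of antigen presentation. They comprise every gene whose symbol starts with H2-, which gave 30 genes, and 7 genes taken by name, B2m, Tap1, Tap2, Tapbp, Cd74, Ciita and Nlrc5. Together they were 37 of the 16579 genes measured. RNA was sequenced from cells labelled as bone marrow megakaryocytes (MKs), the large cells that shed platelets, sorted from 3-month-old mice. The 3 control libraries came from Becn1f/f mice, in which the autophagy gene Becn1 is flanked by loxP sites and left intact, and the other 3 were labelled Becn1f/f;Pf4-iCre, in which a Cre recombinase driven by the platelet factor 4 promoter is meant to delete Becn1 in the megakaryocytic lineage. Both groups carry the floxed allele, so the Cre transgene itself and the loss of Becn1 cannot be told apart. The question of the comparison is how the RNA of these cells differs between the genotypes. The labels number the libraries 1 to 3 in each group but do not say how many mice went into each, so the p-values measure the spread between these libraries only.

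MHC class I molecules, made of a heavy chain and the light chain β2-microglobulin, show peptides from inside the cell to CD8+ T cells, and nearly all nucleated cells carry them. The peptides are pumped into the endoplasmic reticulum by the transporter Tap1/Tap2 and loaded with the help of tapasin. MHC class II molecules, made of an α and a β chain, show peptides from ingested material to CD4+ T cells and are found mainly on dendritic cells, B cells and macrophages. Their chains are escorted by the invariant chain Cd74 and loaded by H2-DM, which H2-O restrains, and Ciita switches the class II genes on as Nlrc5 does the class I genes.

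By their symbols and known products the 37 genes fall into 20 class I heavy chain genes, 9 class II genes and 7 partners and regulators. H2-Ke6, which carries the symbol but codes for a dehydrogenase and no MHC chain, makes up the rest. H2-T-ps, whose symbol marks it as a pseudogene, is counted among the class I heavy chain genes. RefSeq places 33 of them on chromosome 17 in the build GRCm38.p6, while B2m lies on chromosome 2, Nlrc5 on 8, Ciita on 16 and Cd74 on 18. The class II genes H2-Ob, H2-Ab1, H2-Aa, H2-Eb1 and H2-Eb2 follow each other in this order along chromosome 17, with no other gene of the measured set between them.

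The promoters of class II genes are known for a conserved module with a Y box, which is bound by the factor NF-Y. This box holds ATTGG, the reverse complement of CCAAT, called the backward form of CCAAT here. Of the 37 genes, 26 had a promoter in the RefSeq table. Stretches of 100 bases that end 31 bases before the start site are shown for 6 class II genes, as they hold this box in genes with unlike values below, and for the class I gene H2-D1. Capitals mark the letters ATTGG or CCAAT.
H2-Aa (chr17:34287854-34287953, minus strand): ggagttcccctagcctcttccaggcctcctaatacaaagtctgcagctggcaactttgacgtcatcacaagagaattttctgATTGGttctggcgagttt
H2-Eb1 (chr17:34305737-34305836, plus strand): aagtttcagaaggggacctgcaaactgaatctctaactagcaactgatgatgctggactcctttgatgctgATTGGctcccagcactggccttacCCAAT
H2-Eb2 (chr17:34325545-34325644, plus strand): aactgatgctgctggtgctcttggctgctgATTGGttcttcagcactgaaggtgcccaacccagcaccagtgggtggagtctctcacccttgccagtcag
H2-DMb1 (chr17:34153061-34153160, plus strand): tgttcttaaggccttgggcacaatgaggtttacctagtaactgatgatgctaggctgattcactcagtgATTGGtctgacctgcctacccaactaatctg
H2-Oa (chr17:34092249-34092348, plus strand): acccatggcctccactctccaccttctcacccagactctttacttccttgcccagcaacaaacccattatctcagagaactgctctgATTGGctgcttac
H2-Ob (chr17:34238775-34238874, plus strand): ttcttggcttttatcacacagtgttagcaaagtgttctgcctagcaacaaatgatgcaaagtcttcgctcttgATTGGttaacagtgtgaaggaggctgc
H2-D1 (chr17:35262964-35263063, plus strand): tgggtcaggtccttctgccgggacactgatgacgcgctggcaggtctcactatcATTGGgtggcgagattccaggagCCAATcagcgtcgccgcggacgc

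All coordinates are in GRCm38.p6. All 8 class II genes with a promoter in the table held CCAAT on either strand, as did 12 of 14 class I heavy chain genes, against 37.4% of all 32841 promoters of the same length. The backward form began 48 bases before the start site in H2-Aa, 59 in H2-Eb1, 61 in H2-DMb1, 57 in H2-Ob, 43 in H2-Oa, 90 in H2-DMb2 and 100 in H2-Eb2. In H2-DMa it lay 198 bases before the start of the second of its 2 listed promoters. Within 110 bases before the start site, the backward form began in 7 of the 8 class II genes, 8 of the 14 class I heavy chain genes and 11.4% of all promoters. The longer form CTGATTGG, which contains the shorter one, was searched on both strands and occurred in 4.1% of all promoters. It was read as CTGATTGG in H2-Aa, H2-Eb1, H2-Eb2 and H2-Oa among the 8 class II genes. In 7 of the 14 class I heavy chain genes it lay on the opposite strand, as CCAATCAG. Of the 3 class II genes upregulated below, H2-Aa and H2-Eb1 held the box, and H2-Ab1 had no promoter in the table. Genes that were not upregulated, such as H2-Oa and H2-Ob, also held it. Whether the box bears on any of these values was not tested. Such a match describes the letters only.

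**Figure D1:**
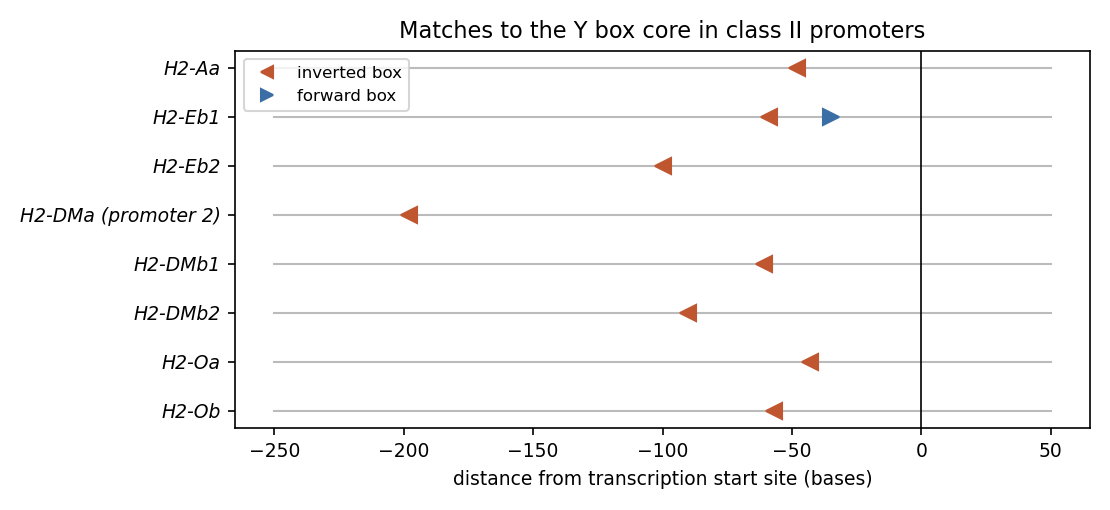
Position, in bases from the transcription start site at 0, of the Y box core letters in the RefSeq promoters of 8 class II genes. Backward matches (ATTGG) are red triangles and forward matches (CCAAT) blue triangles, on a grey line for the promoter window. H2-DMa is drawn with its second promoter only, since the first held no match. The backward letters lay 43 to 100 bases before the start in 7 of the 8 genes, and H2-Eb1 also held the forward letters 35 bases before it.

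The libraries held 16467560 to 17156728 reads assigned to genes and correlated with each other at 0.980 to 0.992 (Pearson's r across genes). Becn1 itself was not clearly lower in the libraries labelled Becn1f/f;Pf4-iCre. Its level was 128, 109 and 119 CPM (counts scaled to library size with edgeR's TMM factors) in the Becn1f/f libraries and 106, 104 and 109.8 CPM in the others, and the ranges overlapped (log2 fold change −0.15, SE 0.12, edgeR adjusted p = 0.94). The 16 MK and platelet markers measured made up 0.0285% to 0.0381% of the counts, and their summed level was 280.2 to 389.9 CPM in Becn1f/f and 292.7 to 368 CPM in Becn1f/f;Pf4-iCre libraries. Of the 14 tested, 1 was a DEG, against 2.3% of all genes tested, namely Pf4, which gives the Cre its promoter. It was at 3.76, 6.73 and 4.12 CPM in Becn1f/f and at 3.06, 2.11 and 2.08 CPM in Becn1f/f;Pf4-iCre libraries, lower without overlap (log2 fold change −1.01, SE 0.29, edgeR adjusted p = 0.42). Itga2b, which codes for the sort marker CD41, was at 142 to 187 CPM. Neutrophil markers summed to 9301 to 16979 CPM, far above the sum of the MK and platelet markers in every library. The share of MKs among the sorted cells was not tested, so the levels below are those of the sorted cells as a whole. In such bulk RNA, a change in the number of cells of a type and a change in RNA per cell cannot be told apart.

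Levels per length are compared as FPKM (fragment counts divided by transcript length and library size). B2m, the light chain, was the highest of the 37 genes with 1199 ± 277 FPKM (mean ± SD, n = 3) in Becn1f/f, ahead of the classical heavy chains H2-D1 at 958 ± 40.5 and H2-K1 at 582 ± 9.57 FPKM. B2m ranged from 977 to 1509 and H2-D1 from 915 to 996 FPKM, and B2m was above H2-D1 within each of the 6 libraries. Cd74 followed with 386 ± 102 FPKM, and then H2-T23, H2-Aa and H2-Ab1 at 155 ± 16.8, 155 ± 12.5 and 149 ± 17.9 FPKM, which overlapped. The transactivators were far lower, with 7.93 ± 1.07 FPKM for Nlrc5 and 4.08 ± 2.2 FPKM for Ciita. The same 4 genes led in Becn1f/f;Pf4-iCre, where H2-Aa and H2-Ab1 came next and stood ahead of H2-T23, with 252 ± 31, 225 ± 43 and 177 ± 13.9 FPKM. All 37 genes together held 0.491% to 0.495% of the counts in Becn1f/f and 0.512% to 0.601% in Becn1f/f;Pf4-iCre.

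Expression was sufficient for the test in 30 of the 37 genes. The 7 others, all class I heavy chain genes, had at most 32 counts over the 6 libraries. H2-Q1 held 7, 10 and 7 counts in Becn1f/f and 3, 1 and 4 in Becn1f/f;Pf4-iCre libraries, and H2-Q2 held 4, 6 and 6 against 8, 3 and 0. H2-Q8 had 10 counts in Becn1f/f;Pf4-iCre library 3 and none in any other. H2-T3, H2-Bl, H2-M2 and H2-M11 had at most 3 counts in any library. Of these, the groups did not overlap in CPM for H2-Q1 alone, and it was lower past the DEG thresholds when no filter on low counts was applied. The same fit called H2-Q8 higher, on the counts of its 1 library.

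Genes counted as DEGs when their fold change reached 1.5 at an unadjusted P below 0.05. By this rule 3 of the 30 tested genes were upregulated in Becn1f/f;Pf4-iCre, the class II chains H2-Aa, H2-Ab1 and H2-Eb1, against 1.36% of all 12256 genes tested, and 1 was downregulated, the class I heavy chain gene H2-Q10, against 0.938%. In either direction that made 4 of the 30 and 2.3% of all genes. None of the 30 had an adjusted p under 0.05 in edgeR, against 0.0408% of all genes, while DESeq2 gave 2 of them one, H2-Aa (adjusted p = 0.0017) and H2-Eb1 (adjusted p = 0.015), against 0.61% of the 11630 genes with an adjusted p in that fit. By the P threshold alone, 7 passed against 6.31% of all genes, 6 of them higher and 1 lower, against 3.92% and 2.39%. The median log2 fold change was 0.26 over the 9 class II genes, 0.05 over the 13 tested class I heavy chain genes and 0.15 over the 7 partners and regulators, beside −0.02 over all genes tested. The genes were selected on their symbols, and the group as a whole was chosen by its earlier fold changes between these genotypes, so its counts describe the genes and are not independent evidence.

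**Figure D2:**
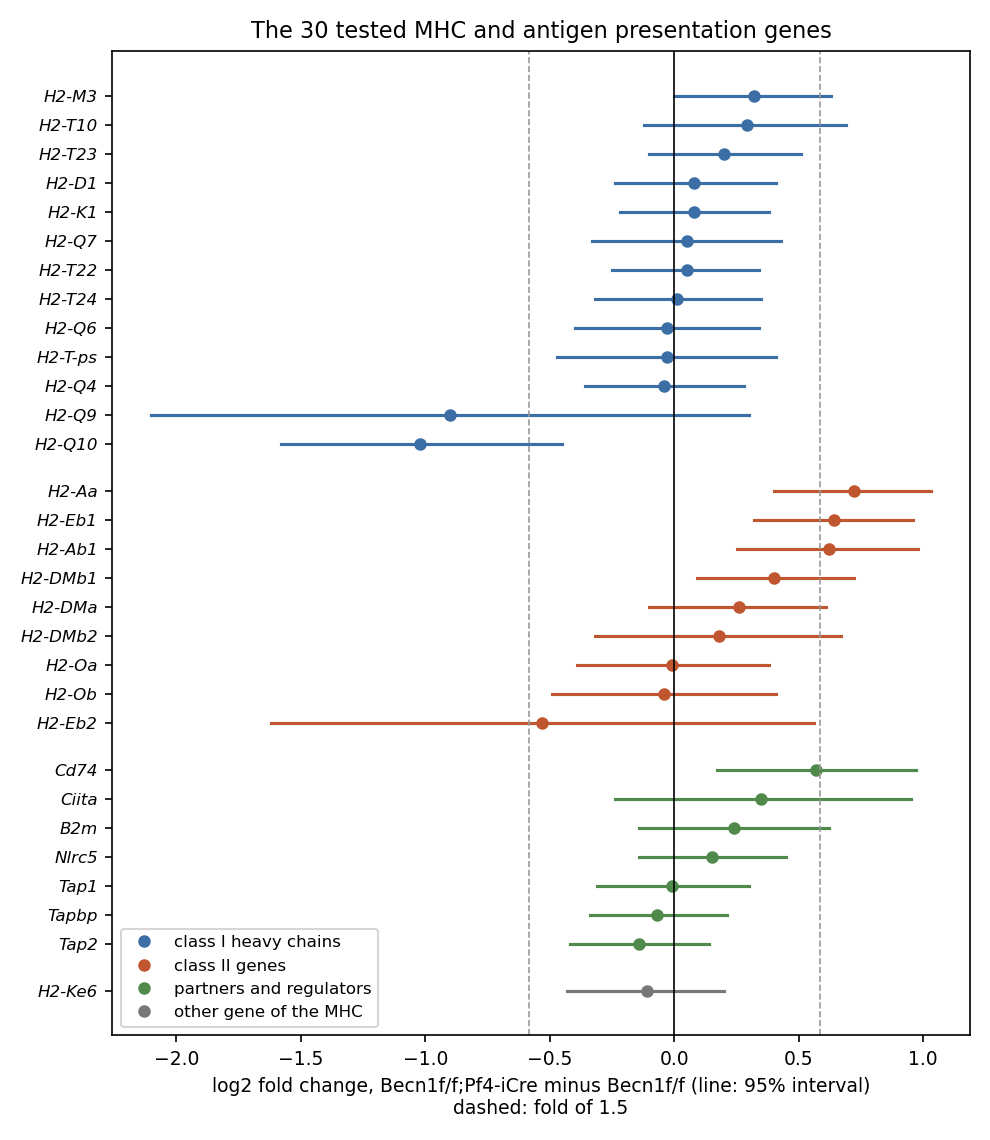
Log2 fold change, Becn1f/f;Pf4-iCre minus Becn1f/f, of the 30 tested genes (dots) with the 95% interval from edgeR (lines), coloured by class, with dashed lines at a fold of 1.5. H2-Aa, H2-Eb1 and H2-Ab1 lie to the right of the dashed line at 0.72, 0.64 and 0.62 and H2-Q10 to the left at −1.02, while most class I heavy chains lie near 0.

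Both chains of the class II molecule I-A and the β chain of I-E were upregulated together. No gene for an I-E α chain was among the genes measured. H2-Aa, the I-A α chain (NCBI gene 14960), was at 124, 118 and 133 CPM in Becn1f/f and at 244, 187 and 186 CPM in Becn1f/f;Pf4-iCre libraries. Every Becn1f/f;Pf4-iCre library lay above every Becn1f/f library, with library 1 the highest (log2 fold change 0.72, SE 0.14, 95% interval 0.40 to 1.03, unadjusted P = 3.3e-04, edgeR adjusted p = 0.13). H2-Ab1, the I-A β chain, was at 117, 129 and 142 CPM in Becn1f/f and at 250.4, 178 and 167 CPM in Becn1f/f;Pf4-iCre libraries. The groups again did not overlap, and Becn1f/f;Pf4-iCre library 1 stood out (log2 fold change 0.62, SE 0.17, unadjusted P = 0.0031, edgeR adjusted p = 0.39). H2-Eb1, the I-E β chain, was at 83.3, 83.3 and 99.3 CPM against 162, 126 and 126 CPM, without overlap (log2 fold change 0.64, SE 0.15, unadjusted P = 9.3e-04, edgeR adjusted p = 0.21). H2-Eb2, a further β chain gene, held only 13 to 58 counts per library, or 0.941, 0.863 and 3.27 CPM in Becn1f/f and 0.779, 1.45 and 1.31 CPM in Becn1f/f;Pf4-iCre libraries. Its groups overlapped and its interval was wide, from −1.62 to 0.56 around a log2 fold change of −0.53.

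The 3 upregulated chains kept nearly fixed proportions within each library. The FPKM ratio of H2-Aa to H2-Ab1 lay between 0.984 and 1.2 in the 6 libraries, and that of H2-Eb1 to H2-Ab1 between 0.42 and 0.488. These genes share almost no sequence with other genes. Of the 50-base stretches of their transcripts, 0.599% in H2-Aa and 0% in H2-Ab1 and H2-Eb1 also occurred in another gene, and their deposited counts were whole numbers in every library. Without Becn1f/f;Pf4-iCre library 1, none of the 3 reached the fold of 1.5, with log2 fold changes of 0.58 for H2-Aa, 0.42 for H2-Ab1 and 0.51 for H2-Eb1 at unadjusted P of 0.0013, 0.013 and 0.0042. Without Becn1f/f library 1, H2-Ab1 fell just short as well, at 0.56.

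Cd74, the invariant chain that escorts class II molecules, was at 300.4, 312 and 454 CPM in Becn1f/f and at 609, 529 and 446 CPM in Becn1f/f;Pf4-iCre libraries. Becn1f/f library 3 lay just above Becn1f/f;Pf4-iCre library 3, so the groups overlapped. The log2 fold change of 0.57 (SE 0.18, 95% interval 0.17 to 0.97, unadjusted P = 0.0091, edgeR adjusted p = 0.48) fell just short of the fold threshold. It was past the threshold in 4 of 15 alternatives. These were the replicate number as a block (0.59), a correction for GC content and length (0.66), leaving out Becn1f/f library 3 (0.78) and leaving out Becn1f/f;Pf4-iCre library 3 (0.68). In the other 11 it did not pass the DEG thresholds, and the lowest log2 fold change of all was 0.46.

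Among the genes of class II peptide loading, H2-DMb1, the β chain of H2-DM, was at 46.3, 49.3 and 40.6 CPM in Becn1f/f and at 69.3, 54.7 and 56.2 CPM in Becn1f/f;Pf4-iCre libraries. The groups did not overlap, but the fold change was below 1.5 (log2 fold change 0.40, SE 0.14, unadjusted P = 0.016, edgeR adjusted p = 0.59). H2-DMb2, the neighbouring β chain gene, was at 7.59, 8.22 and 13.7 CPM against 9.89, 12.5 and 11 CPM, with overlap (log2 fold change 0.18, SE 0.23). The transcripts of H2-DMb1 and H2-DMb2 are alike, with 27.2% of the 50-base stretches of H2-DMb1 found in H2-DMb2, and both had counts that were not whole in every library, so reads between them are uncertain. Their sum was 53.9, 57.6 and 54.3 CPM in Becn1f/f and 79.2, 67.2 and 67.2 CPM in Becn1f/f;Pf4-iCre libraries, a sum formed after the values were seen. H2-DMa, the α chain of H2-DM, was at 81.2, 98.4 and 72.9 CPM against 122, 91 and 88.7 CPM, and its groups overlapped (log2 fold change 0.26, 95% interval −0.10 to 0.61).

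The H2-O chains, which restrain H2-DM and are known from B cells, did not pass the test. H2-Oa was at 13.8, 10.2 and 11.5 CPM in Becn1f/f and at 12.8, 10.2 and 12.3 CPM in Becn1f/f;Pf4-iCre libraries. Its log2 fold change was −0.01, with a 95% interval of −0.39 to 0.38 that leaves out a fold of 1.5 in either direction. H2-Ob was at 20.9, 16.5 and 28.6 CPM against 18.3, 25.7 and 20.4 CPM, with complete overlap (log2 fold change −0.04, 95% interval −0.49 to 0.41). Relative to H2-Ab1, the FPKM of H2-Ob ranged from 0.0276 to 0.0751 across the libraries.

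Ciita, the class II transactivator, was at 15.9, 19.2 and 39.9 CPM in Becn1f/f and at 30.6, 32 and 33.4 CPM in Becn1f/f;Pf4-iCre libraries. The last 3 lay close together, while Becn1f/f library 3 exceeded all other libraries (log2 fold change 0.35, SE 0.27, 95% interval −0.24 to 0.95, edgeR adjusted p = 0.92). Without that library the log2 fold change was 0.86 at an unadjusted P of 2.3e-04 and an edgeR adjusted p of 0.17, past the DEG thresholds. Becn1f/f library 3 was also the highest of the 6 for H2-Eb2, H2-DMb2 and H2-Ob and for the summed B cell markers, at 347 CPM against 190.5 to 254.5 CPM in the others. H2-Oa was instead highest in Becn1f/f library 1, at 13.8 CPM against 11.5 CPM in Becn1f/f library 3. So were the B cell markers Ebf1, Vpreb1, Igll1 and Blnk, while the other measured markers of that list peaked in Becn1f/f library 3. The part of B cells in these values was not tested.

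**Figure D3:**
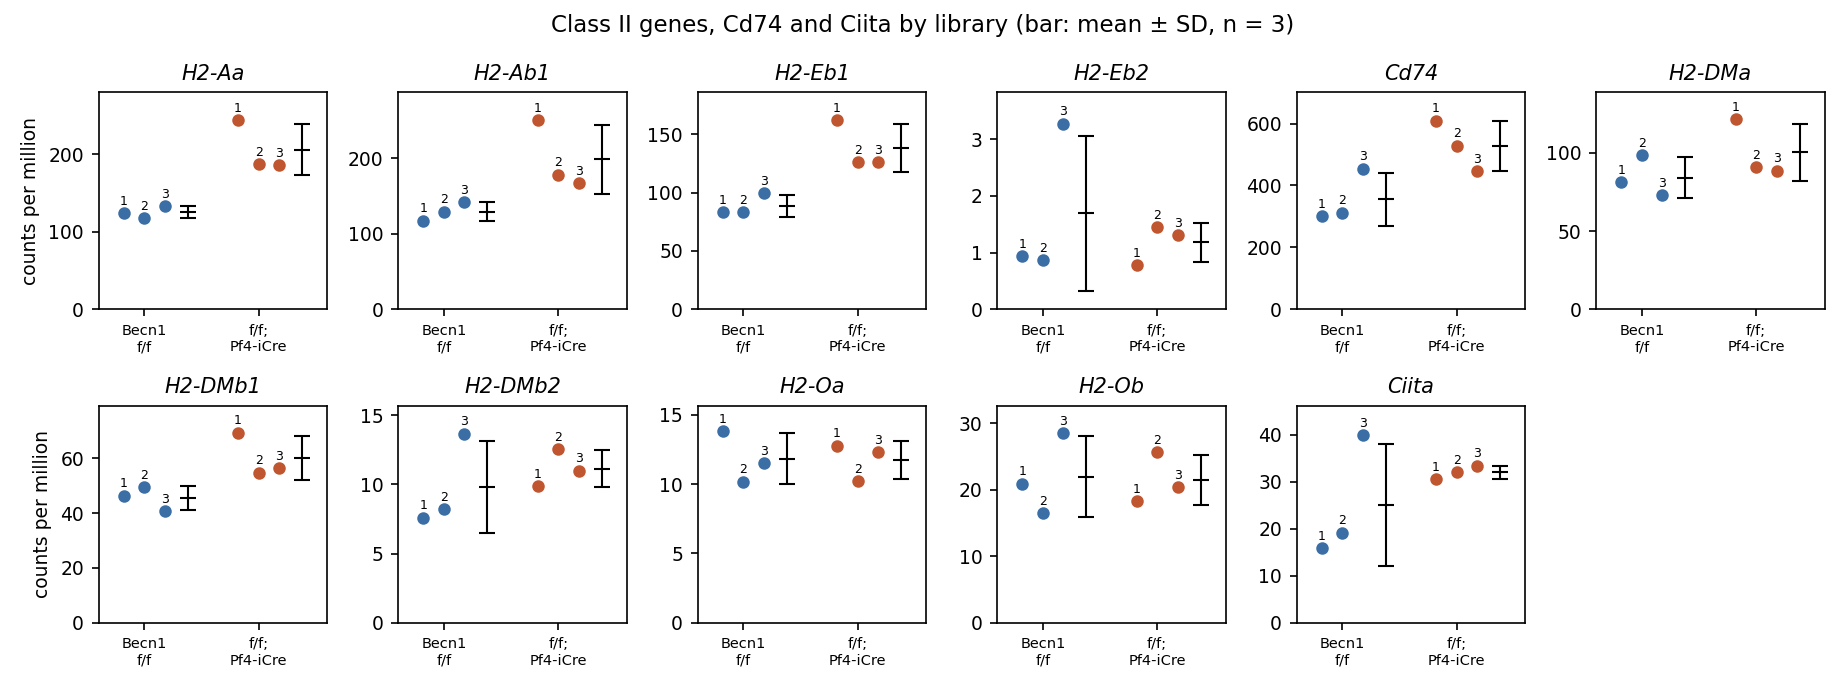
CPM of the 9 class II genes, Cd74 and Ciita in each library (dots, numbered by replicate), with the mean ± SD of 3 libraries beside them, Becn1f/f in blue and Becn1f/f;Pf4-iCre in red. The groups are apart for H2-Aa, H2-Ab1, H2-Eb1 and H2-DMb1 and overlap for the other 7 genes, and Becn1f/f library 3 is the highest of all for Ciita, H2-Eb2, H2-DMb2 and H2-Ob.

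The classical class I heavy chains did not pass the test. H2-K1 was at 859, 833 and 824 CPM in Becn1f/f and at 1007, 849.6 and 804 CPM in Becn1f/f;Pf4-iCre libraries, and H2-D1 was at 1449, 1354 and 1258 against 1639.7, 1381 and 1287 CPM. Both groups overlapped for both genes, with Becn1f/f;Pf4-iCre library 1 the highest in each. The log2 fold changes were 0.08 for each (SE 0.14 and 0.15), with 95% intervals of −0.22 to 0.38 and −0.24 to 0.41, which leave out a fold of 1.5. The ratio of H2-D1 to H2-K1 in FPKM was nearly constant, between 1.6 and 1.68. B2m was at 826, 603 and 514 CPM against 705, 799 and 788 CPM (log2 fold change 0.24, 95% interval −0.14 to 0.62).

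The genes of class I peptide transport and loading did not pass the test either. Tap1 had a log2 fold change of −0.01 (SE 0.14), Tap2 of −0.14 (SE 0.13) and Tapbp, which codes for tapasin, of −0.07 (SE 0.13), and all 3 had overlapping groups. Their CPM lay between 119.8 and 274 in the 6 libraries. Nlrc5, the class I transactivator, was at 50.5, 57.8 and 62.3 CPM in Becn1f/f and at 69.5, 60.4 and 59.9 CPM in Becn1f/f;Pf4-iCre libraries (log2 fold change 0.15, SE 0.14, edgeR adjusted p = 0.94).

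Among the nonclassical class I genes of the Q region, H2-Q10, whose product is known as a secreted heavy chain of the liver, was the only DEG. It was at 5.14, 6.5 and 9.2 CPM in Becn1f/f and at 2.7, 3.68 and 3.92 CPM in Becn1f/f;Pf4-iCre libraries, or 82, 113 and 163 counts against 45, 61 and 66. The groups did not overlap (log2 fold change −1.02, SE 0.26, 95% interval −1.58 to −0.45, unadjusted P = 0.0021, edgeR adjusted p = 0.32). Its counts were not whole in 5 of the 6 libraries, and 19.7% of its 50-base stretches occurred in other genes, mostly H2-Q7, which was higher in every library, so its level is uncertain. The sum of H2-Q7 and H2-Q10 was 44.7, 52 and 39.4 CPM against 49.6, 40.6 and 39.8 CPM and overlapped. H2-Q7 alone had an SD of 7.74 CPM in Becn1f/f, while H2-Q10 averaged 6.95 and 3.43 CPM in the 2 groups. The sum therefore cannot show whether H2-Q10 itself differed.

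H2-Q9 varied most, with 9.47, 1.44 and 12.2 CPM in Becn1f/f and 5.87, 2.47 and 4.04 CPM in Becn1f/f;Pf4-iCre libraries (log2 fold change −0.90, SE 0.55, unadjusted P = 0.13). Summed with its close relative H2-Q7 it was steadier, at 49, 47 and 42.4 CPM against 52.8, 39.4 and 39.9 CPM, and these sums, like that for H2-Q10, were formed after the values were seen. H2-Q4, H2-Q6 and H2-Q7 had log2 fold changes of −0.04, −0.03 and 0.05. Over all 20 class I heavy chain genes, 15 had counts that were not whole in at least 1 library, against 3 of the 9 class II genes.

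In the T and M regions, H2-M3, a heavy chain known for presenting formylated peptides, was at 15.8, 17.5 and 15 CPM in Becn1f/f and at 21, 18.8 and 20.4 CPM in Becn1f/f;Pf4-iCre libraries. Its groups did not overlap, yet the difference was small (log2 fold change 0.32, SE 0.14, unadjusted P = 0.048, edgeR adjusted p = 0.78). H2-T23, which codes for the nonclassical molecule Qa-1, was at 148, 174 and 142 CPM against 201, 166 and 167 CPM, with overlap (log2 fold change 0.20, SE 0.14). H2-T10, H2-T22, H2-T24 and H2-T-ps had log2 fold changes of 0.29, 0.05, 0.01 and −0.03, none past the test. H2-T10 and H2-T22 share 31.6% and 35.8% of their stretches with other genes, so their reads are uncertain too. H2-Ke6 had a log2 fold change of −0.11, and 96.3% of its stretches lie in an overlapping annotated gene. Of the 30 tested genes, 6 had groups that did not overlap in CPM, against 10.6% of all genes, 5 of them higher and 1 lower, against 5.42% and 5.18%.

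**Figure D4:**
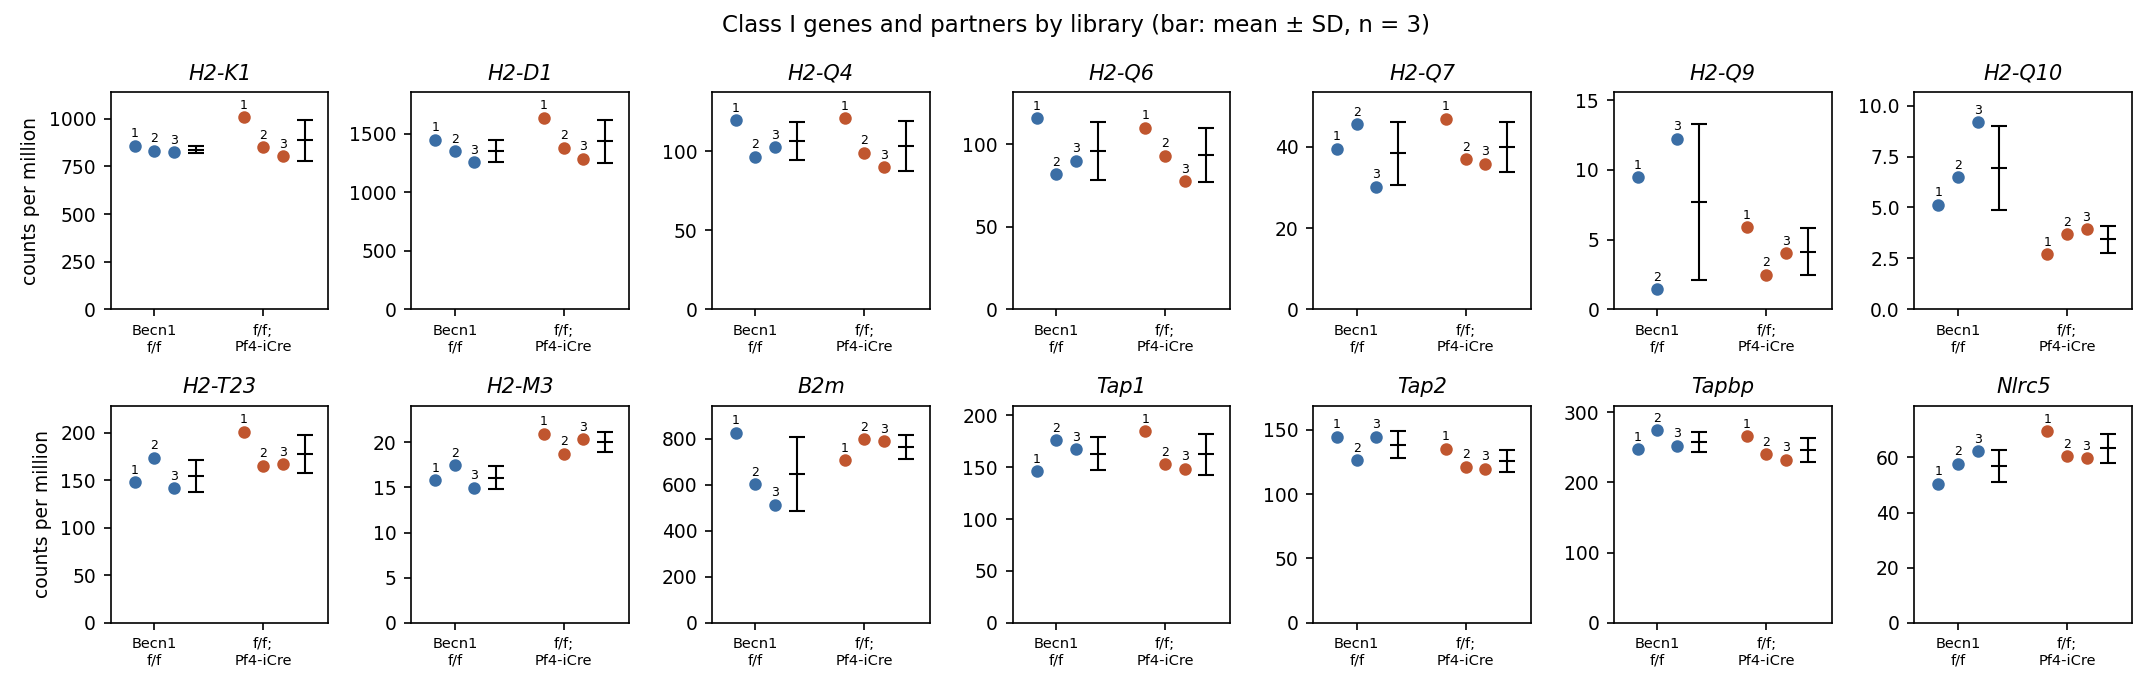
CPM of 9 class I heavy chain genes, B2m, Tap1, Tap2, Tapbp and Nlrc5 in each library (dots, numbered by replicate), with the mean ± SD of 3 libraries beside them, Becn1f/f in blue and Becn1f/f;Pf4-iCre in red. The groups overlap in 12 of the 14 genes and are apart for H2-M3, higher in Becn1f/f;Pf4-iCre, and H2-Q10, lower there.

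Class II and class I thus differed in how far they moved. Summed over the 20 heavy chain genes, class I was at 2856, 2724 and 2590 CPM in Becn1f/f and at 3266, 2760 and 2594 CPM in Becn1f/f;Pf4-iCre libraries, a 1.05-fold difference with overlap. Summed over H2-Aa, H2-Ab1, H2-Eb1 and H2-Eb2, class II was at 325, 331 and 378 CPM against 657, 493 and 481 CPM, a 1.56-fold difference without overlap. The class II sum as a share of the class I sum, both in FPKM, was 17.1%, 18% and 21.8% in Becn1f/f and 29.8%, 26.9% and 27.6% in Becn1f/f;Pf4-iCre libraries, 1.49-fold higher and apart in all 6. This share is taken within a library, so the scaling between libraries does not enter it. No p-value is attached to these sums, since their genes were chosen with the values known.

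Of the marker lists of other marrow cells, the sums of those for dendritic cells and for macrophages and monocytes were apart in the same direction as the class II chains. Among all genes tested, 1.36% were DEGs that were higher and 0.938% DEGs that were lower, to be read beside the counts that follow. The 11 dendritic cell markers summed to 279.8, 278.7 and 309.4 CPM in Becn1f/f and to 386.6, 388.6 and 352.8 CPM in Becn1f/f;Pf4-iCre libraries, without overlap, and 3 of them were DEGs, all higher. These were Cd209a, Clec10a and Flt3, with log2 fold changes of 0.93, 0.76 and 0.74 and edgeR adjusted p of 0.094, 0.15 and 0.11. Flt3 averaged 71.1 CPM in Becn1f/f and 119 CPM in Becn1f/f;Pf4-iCre, Cd209a 26 and 49.4 CPM, and Clec10a 17.9 and 30.4 CPM. Most of the difference in the sum came from these 3 genes. Of the 11 markers, 7 had positive and 4 negative log2 fold changes. The negative ones were Itgax, which codes for CD11c (−0.05), Siglech and Ccr9 (−0.03 each) and Xcr1 (−0.02). Macrophage and monocyte markers, 16 genes, summed to 2066 to 2353 CPM against 2559 to 2640 CPM, also without overlap. Of the 15 tested, 4 were DEGs, all higher. The 4 were Mrc1, C1qc, Cd163 and Cx3cr1, with log2 fold changes of 1.26, 0.80, 0.70 and 0.61. Their edgeR adjusted p was 0.057, 0.78, 0.41 and 0.54. None averaged above 91 CPM in either group. Ccr2 and Csf1r, which were not DEGs, averaged 597 and 431 CPM in Becn1f/f and 834 and 516 CPM in Becn1f/f;Pf4-iCre. Adgre1 was at 0.00, and Vcam1 alone had a negative log2 fold change (−0.20). B cell markers summed to 190.5 to 347 CPM against 199.5 to 254.5 CPM and overlapped, with 1 of 13 a DEG, which was lower. Neutrophil and erythroid markers had overlapping sums, and 1 of 14 and 6 of 14 of them were DEGs, all lower. T and NK cell markers summed to 64.2 to 78.8 against 53.3 to 68 CPM. No gene of these lists was at 0 in every library. The part that any of these cells had in the class II values was not tested.

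**Figure D5:**
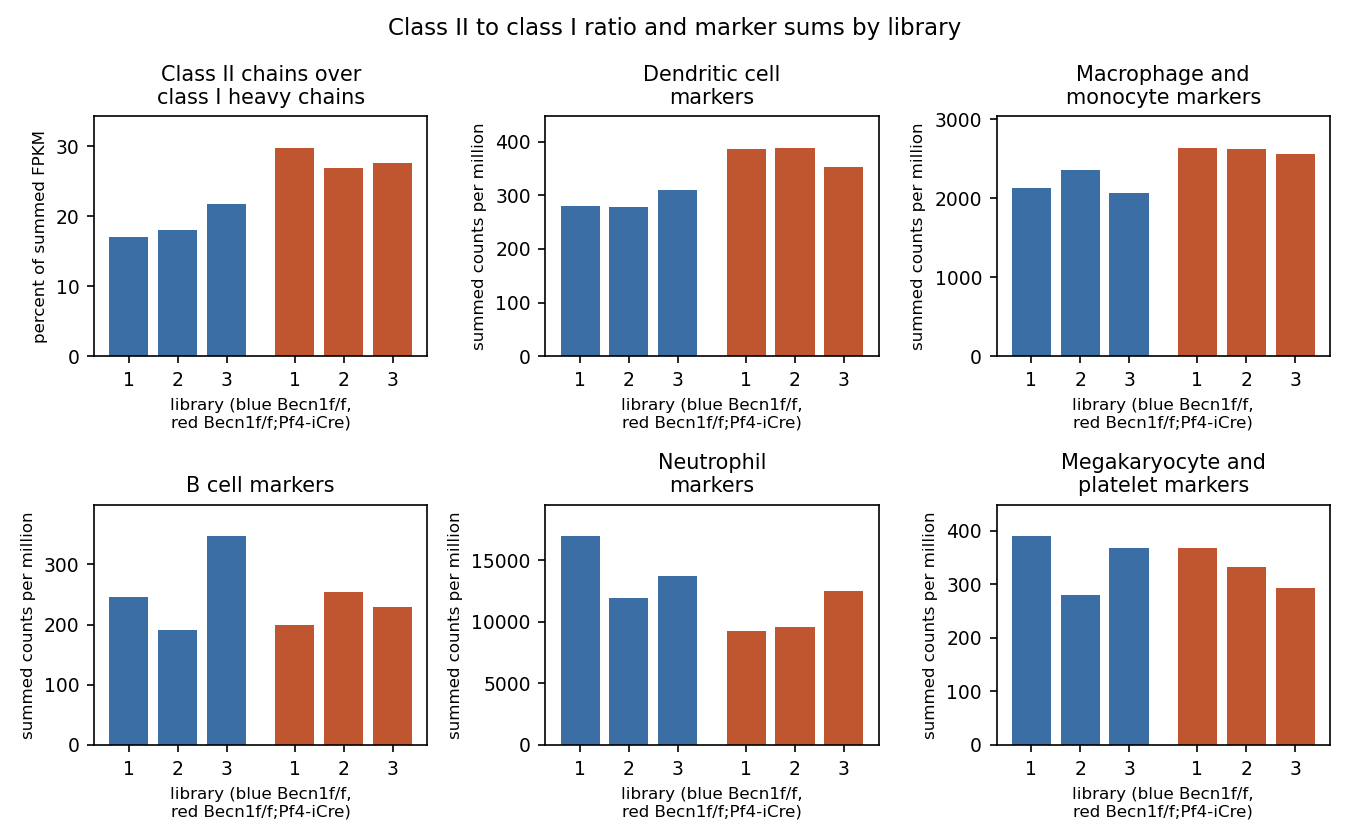
Class II chains as a percent of class I heavy chains (summed FPKM, first panel) and the summed CPM of 5 marker lists in each library (bars, numbered by replicate), Becn1f/f in blue and Becn1f/f;Pf4-iCre in red. The class II share is 26.9% to 29.8% in all 3 Becn1f/f;Pf4-iCre libraries and at most 21.8% in Becn1f/f, the dendritic cell and the macrophage and monocyte sums are apart in the same direction, and the B cell and MK sums overlap.

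Among 9 further genes of class II antigen presentation, 1 was a DEG and higher, against 1.36% of all genes tested. Marchf1, a ubiquitin ligase known to remove class II molecules from the cell surface, was at 68.3, 74.1 and 75.5 CPM in Becn1f/f and at 91.4, 134 and 127 CPM in Becn1f/f;Pf4-iCre libraries, without overlap (log2 fold change 0.69, SE 0.16, unadjusted P = 8.2e-04, edgeR adjusted p = 0.21). Ctss, the protease cathepsin S that trims the invariant chain, was at 288, 366 and 272 CPM against 476, 443 and 446 CPM, also without overlap, but its fold change was below 1.5 (log2 fold change 0.56, SE 0.15, unadjusted P = 0.0024, edgeR adjusted p = 0.34). All 9 had positive log2 fold changes, with a median of 0.23, beside −0.02 over all genes.

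Of 10 further class I partners, which include chaperones and the immunoproteasome, no gene passed either the DEG rule or its P threshold alone. Among all genes tested 2.3% and 6.31% did, so none among 10 is near those shares. Their median log2 fold change was −0.03. The immunoproteasome subunits Psmb8 and Psmb9 had log2 fold changes of −0.11 (SE 0.16) and −0.02 (SE 0.20), and Erap1, which trims class I peptides, had 0.05 (SE 0.14). Of 17 further regulators of MHC genes, 2 were higher by the P threshold alone, against 3.92% of all genes, and neither reached the fold threshold. These were Ifngr1 and Irf2, each without overlap and with a log2 fold change of 0.36 (SE 0.13). Their unadjusted P was 0.016 and 0.017 and their edgeR adjusted p 0.59 and 0.6. Irf1, a transcription factor of the interferon response, had a log2 fold change of 0.04 (SE 0.20). Of 7 tested class I-like genes outside the H2 symbols, none was a DEG, against 2.3% of all genes tested. By the P threshold alone 1 was higher, Fcgrt, against 3.92% of all genes. Fcgrt, which codes for the neonatal Fc receptor, was at 25.5, 32.8 and 22.6 CPM in Becn1f/f and at 47.3, 37.3 and 33.7 CPM in Becn1f/f;Pf4-iCre libraries, without overlap (log2 fold change 0.55, SE 0.18, unadjusted P = 0.0096, edgeR adjusted p = 0.49).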

How the data were processed

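RNA of sorted bone marrow cells labelled as MKs was measured in 6 libraries, 3 per genotype, grouped as labelled. The authors filtered out poor reads and mapped the remainder, and the submitters' processing notes name HISAT, Bowtie2 and the builds GRCm39 and mm39; the counting tool is not given in the sources used here. The deposited estimated counts are not normalized, and the FPKM values deposited by the authors are scaled for length and library size. Estimated counts were rounded. In edgeR 4.0.16 (R 4.3.3), genes passing the expression filter were scaled by TMM and fitted by quasi-likelihood (genotype only, Benjamini-Hochberg adjustment over 12256 genes). Standard errors are the size of the log2 fold change over √F. DEG thresholds follow the study's methods. Simulated data with known changes were used to test the steps. Alternatives tried were a DESeq2 1.42.0 fit, its size factors in edgeR, other count filters, a replicate block, a GC and length correction, limma 3.58.1 on log2(FPKM + 1) or log2(FPKM + 0.1), a minimum mean FPKM of 1, and leaving out each library. Read depth gives counting precision only.

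The genes and lists were chosen with earlier results of these data known. Genes named singly were H2-K1, H2-D1, the class II genes, the 7 genes taken by name, every other tested gene of the group with an unadjusted P under 0.05, a fold of 1.5 or a mean FPKM of 1, a few partners and those past the DEG thresholds. Of the partners and regulators under this rule, 1 is not reported here. H2-Eb2, Fcgrt, Itgax, Itga2b, Ifngr1, Irf2 and the dendritic cell, macrophage, monocyte and B cell markers named were added after their values were seen. The symbol of Marchf1, deposited as a date, was recovered by its NCBI gene ID. Shared 50-base stretches were counted over GENCODE M21 transcripts. Left unused were 16 other per-sample columns, 4 of them from a library that matches no sample mapped here, and 8 columns of group means.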

Additional observations from a re-analysis of the deposited data

How the results depend on the processing

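Of the 30 tested genes, 4 were DEGs, 3 higher and 1 lower. Leaving out 1 library moved the total between 1 and 6, the higher count between 0 and 5 and the lower count between 1 and 2. Without Becn1f/f;Pf4-iCre replicate 1, 0 genes were higher, the median log2 fold change of class I heavy chains was −0.02 and their summed difference −0.02, both of opposite sign to the reported 0.05 and 0.07; across the left-out libraries these ran from −0.02 to 0.09 and from −0.02 to 0.14. Without Becn1f/f replicate 3, Cd74 and Ciita made 5 higher genes, and without Becn1f/f replicate 2, H2-Q9 made 2 lower ones. Lower genes also numbered 2 with no filter on low counts and with limma on log2(FPKM + 0.1), through H2-Q1. With no filter, H2-Q8 made 4 higher genes, on counts in 1 library only. At an adjusted p under 0.05, edgeR called 0 in total, 0 higher and 0 lower (7 had an unadjusted P under 0.05), and DESeq2 called 2. The limma fits on FPKM left H2-Ab1 just under the fold threshold, at 0.58. The replicate block, which added Cd74 at 0.59, gave 4 higher genes, as did the GC and length correction, with Cd74 at 0.66; replicate numbers did not pair the libraries, as same-numbered libraries deviated together at 0.07, −0.28 and 0.20. H2-Q10 was lower by the thresholds in every alternative but the adjusted p. The class II sum stayed between 0.50 and 0.73 and the class II to class I ratio between 0.50 and 0.68 (log2) when a library was left out. Depth limits the 7 untested class I genes.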
